A study of Mus musculus with 13 samples.

Results

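The genes described here are the feedback inhibitors and ETV transcription factors that serve as a transcriptional readout of signaling from HER2 (the protein of Erbb2) through RAS to the kinase ERK. They were chosen by name from the count table, not by a threshold on their values, and comprised 10 of the 24421 genes listed: the Sprouty genes Spry1, Spry2 and Spry4, the related Spred1, the phosphatase genes Dusp4 and Dusp6, the ETS family factors Etv4 and Etv5, and the output genes Phlda1 and Fosl1. All 10 had counts and passed the filter on low counts. Fosl1 passed it only through recurrent tumors, where its counts were highest, so its differences between recurrent and primary tumors are descriptions and not tests. RNA had been sequenced from 11 tumors of the mammary gland and from 2 glands free of cancer, all of female mice. All animals were of the FVB/N-TgN strain with the insertion labelled (MMTV-HER2/neu) 202Mul/J and the genotype entry "Wild type", and all, the donors of the glands included, carried the rat HER2/Neu cDNA behind the mouse mammary tumor virus promoter, which is active in breast epithelium. Primary untreated tumors (n = 3) and the glands (n = 2) came from untreated mice. Primary stavudine tumors (n = 3) had developed in mice whose water held stavudine at 1 mg/mL, a nucleoside analog that blocks reverse transcriptase. Tumors of the recurrent 17-DMAG group (n = 3) grew back after complete regression under repeated intraperitoneal injections of 20 mg/kg 17-DMAG, an inhibitor of the chaperone HSP90, and recurrent 17-DMAG plus stavudine tumors (n = 2) had done so in mice that also drank stavudine. By the study's methods, the injections went on during regrowth, up to the end point size. Recurrence and ongoing 17-DMAG dosing therefore cannot be told apart in these samples. Each library was an individual spontaneous tumor or gland by the labels. The age of each animal and the age at which it began stavudine were not given per sample in the labels, and tumors sampled during their response to 17-DMAG were not among the libraries.

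Receptors of the ErbB family activate RAS through adaptor proteins, and RAS then drives the kinases RAF, MEK and ERK. Active ERK switches on the genes of its own inhibitors, so that Sprouty and Spred proteins come to restrain RAS activation upstream while DUSP phosphatases remove the activating phosphates from ERK itself. It also relieves repression by Capicua (Cic) and activates ETS factors, and the RNA of Etv4, Etv5, Dusp6 and the Sprouty genes is widely used as a readout of the pathway in tumors driven by receptor kinases, HER2 among them.

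The start-site windows of 3 of these genes are shown for their matches to the letters that Capicua, the repressor that ERK inactivates, is known to bind. The windows of Dusp6 and Spry2 held the full octamer, and that of Etv5 only the shorter hexamer. RefSeq windows of 300 bases on GRCm38.p6, from 250 bases before to 50 bases after a start site, were at hand for 5 of the 10 genes (Spry1, Spry2, Spred1, Dusp6 and Etv5, the last with windows at 2 start sites). Both strands were searched for the octamer in its forms TGAATGAA, TGAATGGA, TCAATGAA and TCAATGGA and for the hexamer TGAATG, which the first pair of these octamers contains. Capitals mark matches on either strand in the windows of Dusp6 (chr10:99262981-99263280, plus strand), Spry2 (chr14:105896770-105897069, minus strand) and Etv5 (chr16:22438319-22438618, minus strand), each read 5′ to 3′ along the gene.
Dusp6: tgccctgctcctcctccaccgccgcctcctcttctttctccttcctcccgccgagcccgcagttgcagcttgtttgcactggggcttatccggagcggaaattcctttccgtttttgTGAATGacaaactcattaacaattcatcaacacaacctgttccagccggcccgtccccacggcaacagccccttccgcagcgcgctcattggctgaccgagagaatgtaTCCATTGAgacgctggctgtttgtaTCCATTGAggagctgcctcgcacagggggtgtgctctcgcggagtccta
Spry2: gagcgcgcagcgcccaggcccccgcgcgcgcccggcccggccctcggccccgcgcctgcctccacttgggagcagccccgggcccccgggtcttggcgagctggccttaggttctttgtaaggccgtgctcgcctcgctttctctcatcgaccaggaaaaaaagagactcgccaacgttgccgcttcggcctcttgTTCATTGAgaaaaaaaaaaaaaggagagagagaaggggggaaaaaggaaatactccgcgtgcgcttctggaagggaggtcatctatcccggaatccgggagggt
Etv5: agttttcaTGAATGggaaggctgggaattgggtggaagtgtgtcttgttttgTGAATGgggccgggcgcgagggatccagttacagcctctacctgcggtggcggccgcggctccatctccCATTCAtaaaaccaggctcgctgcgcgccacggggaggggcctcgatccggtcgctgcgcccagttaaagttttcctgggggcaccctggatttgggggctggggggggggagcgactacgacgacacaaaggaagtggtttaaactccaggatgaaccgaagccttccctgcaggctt
Dusp6 held 2 octamers, at positions -24 and 2 from the start site, and a hexamer at -133. Spry2 held an octamer at -54, and the Etv5 window held 3 hexamers, at -242, -198 and -129. Among all 32851 windows of this length, 3.84% held an octamer and 12.7% a hexamer. The windows of Spry1 and Spred1 and the other Etv5 window held neither. The ETS core GGAA was present in 96% of all windows and in at least 1 window of each of the 5 genes. The longer ETS motif CCGGAAGT (3.89% of windows) and the AP-1 motif TGANTCA (7.81%) were in none of the 6. A match describes letters only. No binding was measured.

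Gene positions on GRCm38 are 1-based RefSeq positions, and chromosomes and strands are those of the GENCODE vM21 annotation. Spry1 lies at chr3:37639947-37644599 (plus strand), Spred1 at chr2:117121071-117182279 (plus), Dusp4 at chr8:34807610-34819894 (plus), Dusp6 at chr10:99263231-99267489 (plus), Phlda1 at chr10:111506286-111508649 (plus) and Fosl1 at chr19:5447698-5455938 (plus). On the minus strand lie Etv4 at chr11:101769747-101785310, Spry2 at chr14:105891947-105896819, Etv5 at chr16:22381313-22439570 and Spry4 at chr18:38586247-38601347. The counts cover the exons of each gene, untranslated parts included. Exons of Fosl1 overlap those of Ccdc85b on the opposite strand, and exons of Spry1 and Phlda1 overlap non-coding models that the count table did not list. The strand setting of the counting step was not stated, so reads of such partners cannot be told apart.

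Library totals ran from 39921388 to 56887708 counts, and no 2 libraries held identical values. Levels are given as CPM, the counts of a gene per 1000000 counts of the TMM-scaled library total. The TMM factor was 0.493 in mammary gland replicate 2, whose 7 milk protein genes summed to 733197 CPM and whose 6 skeletal muscle genes summed to 1563 CPM, against factors of 0.999 to 1.12 elsewhere. Erbb2, whose count can include reads from the rat transgene, stood at 3697 CPM in recurrent 17-DMAG replicate 1, between 7711 and 19073 CPM in the other 10 tumors, and at 11205 and 12894 CPM in the 2 glands. Recurrent 17-DMAG replicate 1 also had the highest sum of 6 fibroblast and mesenchymal markers (5641 CPM against 239 to 1818 in the other tumors), of 8 leukocyte markers (232 against 80.5 to 131) and of 6 endothelial markers (263 against 64.3 to 140). All 6 luminal epithelial markers were above 0 in every library. In bulk tissue, fewer cells of a type and less RNA per cell cannot be told apart.

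Per kilobase of exon, the genes spanned a wide range of levels in the tumors. The ERK phosphatase gene Dusp6 (173 ± 67.7 CPM per kilobase, mean ± SD, n = 11) and Etv5 (145 ± 38.5) were highest, followed by Phlda1 (80.7 ± 34.5). Spry2 (44.3 ± 8.65) and Spred1 (42.7 ± 4.95) came next, then Dusp4 (18.8 ± 5.34), Etv4 (14.5 ± 4.04), Spry4 (14.1 ± 3.35) and Spry1 (10.4 ± 4.27). Dusp6 and Etv5 did not differ beyond their spread, nor did Spry2 and Spred1, nor neighbours among the last 4 of these. Fosl1, the AP-1 factor FRA-1, was barely detected, with 0 to 14 counts per library. In the glands, Etv5 (75 and 26.6 CPM per kilobase) and Dusp6 (67.7 and 14.4) were the highest in each and Fosl1 the lowest. Phlda1 followed in gland replicate 1 (60) but stood at 8.64 in replicate 2, below Spry2 and Spred1 at 12.2 each.

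**Figure D1:**
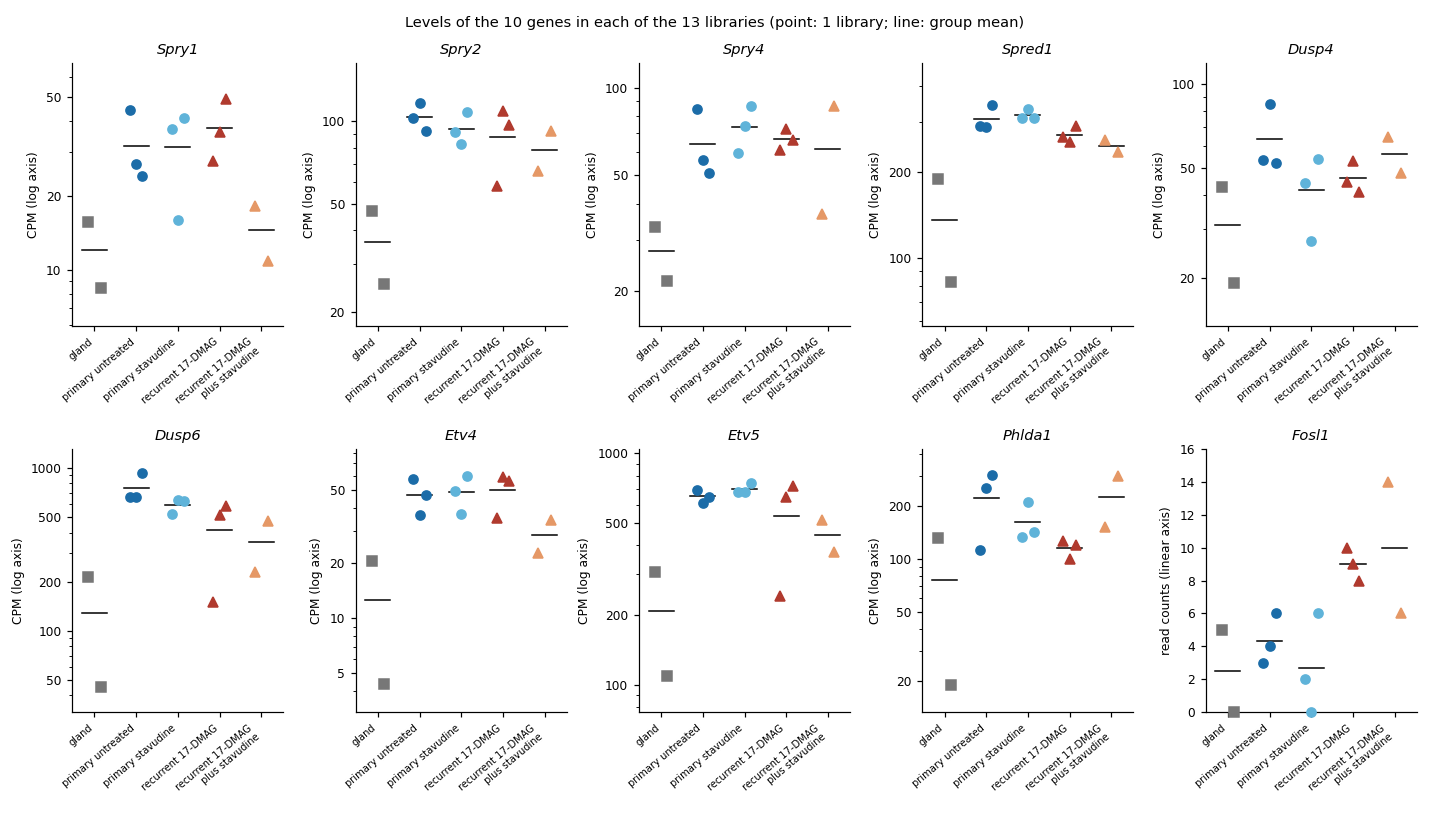
Level of each of the 10 genes in the 13 libraries, by group, as CPM on a log axis (Fosl1 as read counts on a linear axis). Each point is 1 library and each line a group mean. Both glands lie below all 11 tumors for Spry2, Spry4, Spred1 and Etv4.

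The first comparison asked how this readout differed between tumors and cancer-free glands that carried the same transgene. All 10 genes had a higher estimate in tumors (the mean of the 4 tumor groups) than in glands, with log2 fold changes of 0.72 to 1.97 and a median of 1.24, where the median over all 17135 genes tested was -0.022. The difference passed edgeR's quasi-likelihood test at an adjusted p under 0.05 for 4 genes, Spry2, Spry4, Spred1 and Etv4. Over all genes, 10.4% passed in either direction and 1.6% passed as higher in tumors. The same 4 were the ones whose 11 tumor values all lay above both gland values, which held for 4.14% of all genes. DESeq2 called 7 of the 10 higher, adding Dusp6, Etv5 and Spry1 (6.37% of genes as background), and limma voom called 6, adding Dusp6 and Etv5 (1.6%). Scaling by library totals alone, chosen after seeing the data, raised the median of all genes to 0.37 and that of the 10 genes to 1.47. It kept all 10 estimates above 0 and called 0 by edgeR. The share of all genes called under that scaling was not taken. Within the fit of all 13 libraries, the contrast of the primary untreated tumors alone with the glands called only Spry2.

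With 2 glands, the count depended on which libraries were in the fit, and it changed most with the gland left out. The Spry2 estimate was 1.88 without mammary gland replicate 1 and 1.04 without mammary gland replicate 2. In these fits the lone gland was assumed to vary like the other groups. The share of all genes called was not taken with a library left out, so such counts have no background. The count was 2 (Spry2 and Spred1) without any 1 of recurrent 17-DMAG replicates 2 and 3 and primary stavudine replicates 2 and 3. Without recurrent 17-DMAG replicate 1 it was 6, with Dusp6 and Etv5 added. Spred1 passed in each of the 13 fits that left out a library, Spry2 in 12, Spry4 in 8 and Etv4 in 2.

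**Figure D2:**
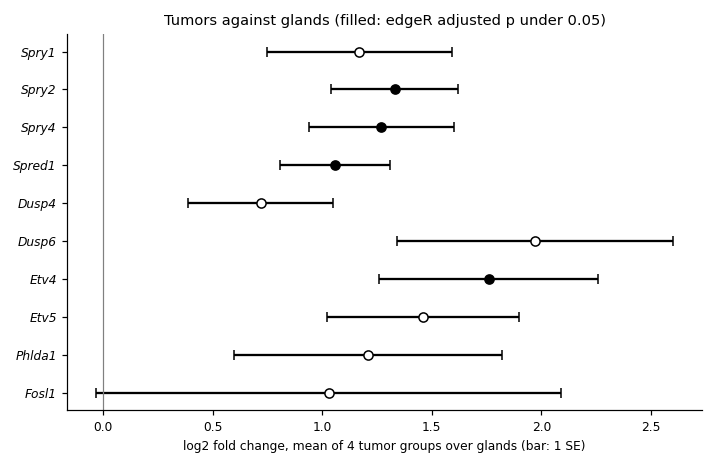
Log2 fold change of each gene between the mean of the 4 tumor groups and the 2 glands, with bars of 1 standard error. Filled points passed edgeR at an adjusted p under 0.05. All 10 points lie to the right of 0, from Dusp4 at 0.72 to Dusp6 at 1.97.

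Among the inhibitors of RAS activation, Spry2, a docking protein that intercepts receptor signals to RAS, had 46.8 and 25.4 CPM in the glands. It had 103, 117 and 92.5 CPM in primary untreated, 91.5, 82.8 and 108 in primary stavudine, 57.9, 109 and 96.8 in recurrent 17-DMAG and 65.7 and 92.1 in recurrent 17-DMAG plus stavudine tumors. No tumor reached down to the glands, and the lowest tumor was recurrent 17-DMAG replicate 1. The log2 fold change of tumors over glands was 1.33 (SE 0.29, adjusted p = 0.0183 by edgeR, range 0.00013 to 0.156 over 21 alternatives). Spred1, which brings the RAS-inactivating protein neurofibromin to the membrane, had 190 and 82.5 CPM in the glands. It had 290, 289 and 345 CPM in primary untreated, 311, 334 and 309 in primary stavudine, 266, 255 and 290 in recurrent 17-DMAG and 259 and 236 in recurrent 17-DMAG plus stavudine tumors. Its 11 tumors stayed within 1.46-fold of each other, the narrowest range of the 10 genes. It rose by 1.06 on the log2 scale (SE 0.25, adjusted p = 0.0249, range 0.000132 to 0.184), with 1.82 without mammary gland replicate 1 and 0.66 without replicate 2.

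Spry4, a Sprouty family inhibitor of RAS to ERK signaling, had 33.3 and 21.7 CPM in the glands. It had 84.6, 56.5 and 51.1 CPM in primary untreated, 59.7, 74.1 and 86.8 in primary stavudine, 61.3, 72.3 and 65.9 in recurrent 17-DMAG and 36.8 and 86.8 in recurrent 17-DMAG plus stavudine tumors. The 2 tumors of the last group were the lowest and, level with a primary stavudine tumor, the highest of all 11. The log2 fold change over glands was 1.27 (SE 0.33, adjusted p = 0.0353, range 0.00179 to 0.275). Spry1, of the same family, had 15.6 and 8.49 CPM in the glands. It had 44.5, 26.8 and 24 CPM in primary untreated, 37.3, 16 and 41.3 in primary stavudine, 27.7, 36.1 and 49 in recurrent 17-DMAG and 18.2 and 10.9 in recurrent 17-DMAG plus stavudine tumors. The 10.9 CPM of the last tumor lay between the glands, and the log2 fold change of 1.17 (SE 0.42) had an adjusted p of 0.0994 (range 0.0305 to 0.508).

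Of the phosphatase genes, Dusp6, whose product dephosphorylates ERK in the cytoplasm, had 212 and 45.2 CPM in the glands. It had 658, 659 and 928 CPM in primary untreated, 520, 632 and 624 in primary stavudine, 150, 513 and 580 in recurrent 17-DMAG and 230 and 474 in recurrent 17-DMAG plus stavudine tumors. Its tumors spread over 6.19-fold, more than those of any other of the genes besides Fosl1, which was at 0 in a tumor. Recurrent 17-DMAG replicate 1 lay below gland replicate 1. The log2 fold change of 1.97 (SE 0.63) was the largest point estimate of the 10 and missed the threshold (adjusted p = 0.0713, range 0.00394 to 0.383). It was 3.52 without mammary gland replicate 1 and 1.33 without replicate 2. Dusp4, a phosphatase of ERK in the nucleus, had 42.8 and 19.2 CPM in the glands and 27.2 to 85.3 CPM in the tumors, with a median of 52.2. The tumor minimum was primary stavudine replicate 2 and the maximum primary untreated replicate 2. Its log2 fold change of 0.72 (SE 0.33, adjusted p = 0.177) was the smallest of the 10, and it was 1.46 without mammary gland replicate 1 and 0.34 without replicate 2.

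The ETV factors are ETS proteins of the PEA3 group, which are both targets and effectors of ERK signaling. Etv4 had 20.6 and 4.39 CPM in the glands. It had 57.9, 36.5 and 47.3 CPM in primary untreated, 49.6, 37.2 and 59.8 in primary stavudine, 35.4, 59 and 56.1 in recurrent 17-DMAG and 22.7 and 34.2 in recurrent 17-DMAG plus stavudine tumors. The tumor at 22.7 CPM came close to gland replicate 1 without reaching it. Etv4 rose by 1.76 on the log2 scale (SE 0.50, adjusted p = 0.0481, range 0.00142 to 0.186), the call nearest to the threshold. Without mammary gland replicate 1 the estimate was 3.32, and without replicate 2 it was 1.13. Etv5 had 308 and 109 CPM in the glands. It had 696, 609 and 648 CPM in primary untreated, 680, 680 and 743 in primary stavudine, 241, 646 and 721 in recurrent 17-DMAG and 513 and 374 in recurrent 17-DMAG plus stavudine tumors. The 6 primary tumors lay within 609 to 743 CPM, whereas recurrent 17-DMAG replicate 1 lay below gland replicate 1. The log2 fold change was 1.46 (SE 0.44, adjusted p = 0.059, range 0.00469 to 0.37), with 2.44 without mammary gland replicate 1 and 0.98 without replicate 2.

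Phlda1, a pleckstrin homology domain protein induced by ERK, had 132 and 19.1 CPM in the glands. It had 112, 256 and 303 CPM in primary untreated, 134, 213 and 143 in primary stavudine, 126, 99.7 and 121 in recurrent 17-DMAG and 153 and 300 in recurrent 17-DMAG plus stavudine tumors. All 3 recurrent 17-DMAG tumors and primary untreated replicate 1 lay below gland replicate 1. The log2 fold change was 1.21 (SE 0.61, adjusted p = 0.209), 3.24 without mammary gland replicate 1 and 0.50 without replicate 2. Fosl1 had 5 and 0 counts in the glands and 3, 4 and 6 counts in primary untreated, 2, 0 and 6 in primary stavudine, 10, 9 and 8 in recurrent 17-DMAG and 14 and 6 in recurrent 17-DMAG plus stavudine tumors. Since a count of 0 allows up to 3 counts, most of these values were near the limit of detection, and the log2 fold change of 1.03 had an SE of 1.06 (adjusted p = 0.536).

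Cell type markers differed between the same libraries. The 6 adipocyte markers summed to 740 and 924 CPM in the glands and to 15.9 to 117 CPM in the tumors, where Adipoq, Plin1 and Lep were at 0 in primary stavudine replicate 3. The 7 basal and myoepithelial markers summed to 323 and 917 CPM against 21.7 to 270, with Krt5 and Krt14 at 0 in that same tumor. Endothelial markers summed to 246 and 269 CPM against 64.3 to 263, fibroblast and mesenchymal markers to 2307 and 2576 against 239 to 5641 and leukocyte markers to 114 and 437 against 80.5 to 232, so that these ranges overlapped only through recurrent 17-DMAG replicate 1 or, for leukocyte markers, through the lower gland. The 6 luminal markers summed to 1361 and 1594 CPM in glands and 1249 to 2683 in tumors. The part of cell makeup in the difference was not tested. Leaving milk protein, muscle and adipocyte genes out of the table before scaling called the same 4 genes.

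A ratio of counts within a library does not depend on scaling, and it was taken to Erbb2 for all 10 genes, as a description. Because Erbb2 was at like levels in glands and tumors, it gives the difference above with another denominator and is no further evidence of it. Per 1000 Erbb2 counts, Etv5 had 27.5 and 8.45 counts in the glands and 31.9 to 81.6 in the tumors, and Spry2 had 4.17 and 1.97 against 5.03 to 15.7. These ranges did not overlap. Gland replicate 1 overlapped the tumors for the other 8, among them Dusp6 (18.9 and 3.51 against 17.6 to 68.6), Spred1 (17 and 6.4 against 15.2 to 72), Spry4 (2.98 and 1.68 against 2.81 to 16.6) and Etv4 (1.84 and 0.34 against 1.74 to 9.58).

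Other genes of the pathway were counted in 5 lists. In tumors against glands, edgeR called 11 of their 72 tested genes, beside 10.4% of all genes by edgeR, while DESeq2 called 20 and limma voom 12. The share of all genes called in either direction was not taken for DESeq2 or limma voom, so their counts have no background here. The counts that follow are those of edgeR, which called 1.6% of all genes higher. Of 4 ErbB receptors, Egfr, the receptor of epidermal growth factor, rose in tumors over glands by 0.60 (log2, SE 0.17, adjusted p = 0.0463), and none was called lower. Of 19 genes of the RAS to ERK core, 2 were called higher, the kinase ERK1 gene Mapk3 (0.78, SE 0.17, adjusted p = 0.0169) and the RAS-inactivating Rasa1 (0.67, SE 0.18, adjusted p = 0.0417), and the median of the list was -0.0037. Of 16 tested genes among the other feedback regulators, 3 were called higher, namely Spred3 (1.50, SE 0.40), the ErbB inhibitor gene Errfi1 (1.17, SE 0.30) and Spred2 (0.55, SE 0.11). The phosphatase genes Dusp2 (log2 fold change -2.83, SE 0.59, 0.131 to 0.795 CPM in tumors against 0.678 and 5.33 in glands) and Dusp10 (-1.66, SE 0.44) were called lower. Of 18 other output genes, the pseudokinase gene Trib1 (1.25, SE 0.30) and Ier3 (1.66, SE 0.43), an immediate early gene, were called higher and none lower, with a list median of 0.48. Of 15 ETS and Capicua-related factors, edgeR called only Elf5, an ETS factor of milk-secreting luminal cells, and it was lower (-1.80, SE 0.36, adjusted p = 0.0134). Both Spred paralogs thus passed with Spred1, while the list of feedback regulators had calls in both directions and a median of 0.03.

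Stavudine in the drinking water was next compared among primary tumors. By edgeR, DESeq2 and limma voom, 0 of the 10 genes passed the adjusted threshold (edgeR background 0% of 16870 genes), with log2 fold changes of -0.63 to 0.19 and a median of -0.091 against -0.03 for all genes. At an unadjusted p under 0.05, edgeR had 1 of the 10 (3.76% of all genes), Dusp4, with a log2 fold change of -0.63 (SE 0.27, unadjusted p = 0.0459, adjusted p = 1). Its 44.2, 27.2 and 53.7 CPM in primary stavudine overlapped the 53.5, 85.3 and 52.2 CPM in primary untreated tumors. Dusp6 was the only gene of the 10 whose groups did not overlap (10.8% of all genes), with 520 to 632 CPM under stavudine and 658 to 928 without (-0.35, SE 0.44). The smallest differences were those of Spry1 (-0.024, SE 0.39), Spred1 (0.034, SE 0.11) and Etv4 (0.036, SE 0.26).

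Recurrence after 17-DMAG in mice without stavudine was compared with primary untreated tumors, the control samples that the stavudine comparison also used. Again 0 of the 10 genes passed by edgeR, DESeq2 or limma voom (edgeR background 0%), and 1 had an unadjusted p under 0.05 (9.69% of all genes). This was Phlda1, at 99.7 to 126 CPM in the recurrent tumors and 112, 256 and 303 CPM in the primary ones, with a log2 fold change of -0.97 (SE 0.38, unadjusted p = 0.0289, adjusted p = 0.509). The recurrent values were close together and overlapped only primary untreated replicate 1. The groups did not overlap for 2 genes (15.1% of all genes). Dusp6 was at 150, 513 and 580 CPM after recurrence against 658 to 928 before (log2 fold change -0.87, SE 0.45, adjusted p = 0.52), and -0.45 without recurrent 17-DMAG replicate 1. Fosl1 had 8 to 10 counts against 3 to 6 (1.16, SE 0.87, adjusted p = 0.598), and its place in the fit rested on recurrent tumors. The estimate of Etv5 (-0.30, SE 0.33) changed sign to 0.076 without recurrent 17-DMAG replicate 1. That library had the fibroblast, leukocyte and endothelial marker sums and the low Erbb2 given above, whose part was not tested.

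Recurrence under stavudine, which set 2 recurrent against 3 primary tumors on stavudine, had 0 of the 10 genes past the adjusted threshold by edgeR, DESeq2 or limma voom (edgeR background 0%). An unadjusted p under 0.05 was found for 3 genes (10.1% of all genes). Spry1 was at 18.2 and 10.9 CPM against 37.3, 16 and 41.3 (log2 fold change -1.11, SE 0.45, adjusted p = 0.47). Etv4 was at 22.7 and 34.2 CPM against 37.2 to 59.8 (-0.77, SE 0.30, adjusted p = 0.461). Spred1 was at 259 and 236 CPM against 309 to 334 (-0.35, SE 0.13, adjusted p = 0.441). Both recurrent tumors lay below all 3 primary ones for Spred1, Etv4, Etv5 (513 and 374 against 680 to 743 CPM) and Dusp6 (230 and 474 against 520 to 632 CPM), which made 4 genes without overlap. In this comparison 35.3% of all genes did not overlap. Fosl1 had 14 and 6 counts against 2, 0 and 6 (1.74, SE 0.97). In these 2 recurrent tumors the 5 proliferation markers summed to 343 and 152 CPM, below the 479 to 796 CPM of the other 9, and the fibroblast markers summed to 1389 and 1818 CPM against 239 to 645 in primary stavudine tumors. Their part in the values was not tested.

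Among recurrent tumors, stavudine and its absence were compared over the same 2 and 3 libraries. By edgeR, DESeq2 and limma voom, 0 genes of the 10 passed (edgeR background 0%), and 3 had an unadjusted p under 0.05 by edgeR, with 7.84% of all genes. Spry1 was at 18.2 and 10.9 CPM with stavudine and 27.7, 36.1 and 49 CPM without (log2 fold change -1.36, SE 0.46, adjusted p = 0.493). Etv4 was at 22.7 and 34.2 CPM against 35.4, 59 and 56.1 (-0.81, SE 0.30, adjusted p = 0.563). Phlda1 differed the other way, at 153 and 300 CPM against 99.7 to 126 (0.98, SE 0.41, adjusted p = 0.609). These 3 were also the genes without overlap, as were 21.5% of all genes. Their adjusted p over the alternatives ran from 0.108 to 1 for Spry1, 0.261 to 1 for Etv4 and 0.28 to 1 for Phlda1.

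Averaged over both water arms, 9 of the 10 estimates were lower in recurrent than in primary tumors (8 of 10 by limma voom), with a median of -0.27 where all genes had 0.0018. By edgeR, DESeq2 and limma voom, 0 genes passed (edgeR background 0%). An unadjusted p under 0.05 was found by edgeR for Spred1 (log2 fold change -0.28, SE 0.084, unadjusted p = 0.00843, adjusted p = 0.301, range 0.0528 to 0.67) and Dusp6 (-0.81, SE 0.34, unadjusted p = 0.0399, adjusted p = 0.35, range 0.184 to 0.62), which is 2 of 10 beside 13.6% of all genes. Spred1 ran from 236 to 290 CPM in the 5 recurrent and from 289 to 345 CPM in the 6 primary tumors. Dusp6 ran from 150 to 580 CPM against 520 to 928, so that recurrent 17-DMAG replicate 3 overlapped the primary tumors. For none of the 10 did the recurrent and primary tumors separate, as 1.34% of all genes did. Fosl1 alone had a higher estimate in recurrent tumors (1.45, SE 0.65, adjusted p = 0.369), on 6 to 14 counts against 0 to 6. It had passed the filter on low counts only through recurrent tumors, so this estimate is a description. Of the 72 tested genes on the other lists of the pathway, 0 were called in any comparison between tumors by edgeR or limma voom. DESeq2 called 0 to 3, for which the share of all genes was not taken. At an unadjusted p under 0.05, edgeR had 3 to 11 of the 72, where 3.76% to 13.6% of all genes had one. In the averaged recurrence comparison the extreme estimates included the growth factor genes Lif (1.55, SE 0.48, adjusted p = 0.31) and Ereg (-0.98, SE 0.61) and Phlda3 (1.42, SE 0.60) and Trib1 (-0.55, SE 0.16, adjusted p = 0.292) among the output genes. Among the feedback regulators they were Rasa3 and Dusp2 (both 0.87, SE 0.33 and 0.47), Dusp8 (-0.65, SE 0.20) and Errfi1 (-0.42, SE 0.19). Among the ETS factors they were Spdef (-2.23, SE 0.75), Ehf (-0.68, SE 0.25), Elf3 (0.85, SE 0.26) and Ets1 (0.35, SE 0.26), and in the core Ksr1 (0.88, SE 0.28), Map2k1 (0.21, SE 0.10), Nf1 (-0.47, SE 0.25) and Rasa1 (-0.20, SE 0.11). The 4 ErbB receptors had estimates of -0.17 (Egfr), -0.34 (Erbb3), -0.46 (Erbb2) and -0.89 (Erbb4), none past the adjusted threshold.

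**Figure D3:**
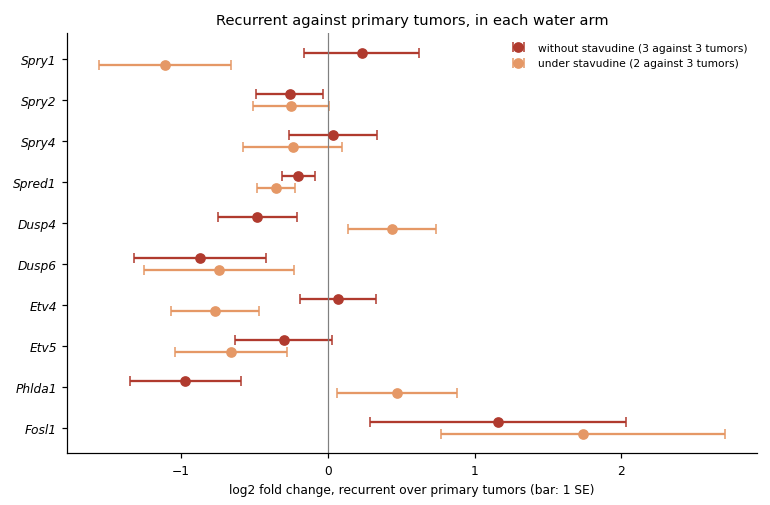
Log2 fold change of recurrent over primary tumors for each gene, without stavudine (dark, 3 against 3 tumors) and under stavudine (light, 2 against 3 tumors), with bars of 1 standard error. Spry1 and Etv4 lie near or right of 0 without stavudine (0.23 and 0.071) and left of 0 under it (-1.11 and -0.77), and Phlda1 and Dusp4 lie on opposite sides of 0 in the 2 arms. None passed the adjusted threshold.

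The difference between the 2 recurrence effects was tested as an interaction. By edgeR, DESeq2 and limma voom, 0 of the 10 genes passed (edgeR background 0%), and 3 had an unadjusted p under 0.05 by edgeR beside 7.84% of all genes. For Phlda1 the recurrence effect was -0.97 without and 0.47 under stavudine, a difference of 1.44 (SE 0.56, unadjusted p = 0.0279, adjusted p = 0.6), and the second of these effects was -0.099 without recurrent 17-DMAG plus stavudine replicate 2. For Spry1 it was 0.23 without and -1.11 under stavudine, a difference of -1.34 (SE 0.59, unadjusted p = 0.0492, adjusted p = 0.635), and the first was -0.014 without recurrent 17-DMAG replicate 3. For Dusp4 it was -0.48 without and 0.44 under stavudine, a difference of 0.92 (SE 0.41, unadjusted p = 0.0479, adjusted p = 0.633). Dusp6 differed by 0.13 (SE 0.67) and Spry2 by 0.0094 (SE 0.35) between the arms.

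Across the 11 tumors, low values gathered in a few libraries. Recurrent 17-DMAG replicate 1 was the lowest tumor for Spry2, Dusp6 and Etv5, with z-scores of -2.08, -2.28 and -2.49, yet its Spry1 (0.016) and Spry4 (-0.22) were near the mean. Recurrent 17-DMAG plus stavudine replicate 1 was the lowest for Spry4 (-2.18) and Etv4 (-2.10) and second lowest for Spry2 and Dusp6, and it had the most Fosl1. Recurrent 17-DMAG plus stavudine replicate 2 was the lowest for Spry1 (-1.95) and Spred1 (-1.68), with Spry4 at 1.11. Averaged over the 10 genes, the z-score was -0.84, -0.73 and -0.30 in these 3 libraries, -0.30 in primary stavudine replicate 2, which had the lowest Dusp4 (-2.12) and 0 counts of Fosl1, and 0.023 to 0.58 in the other 7. No library was low for all of the genes.

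The genes were only partly parallel among themselves. Over the 11 tumors, 28 of 45 pairs had a Pearson r above 0, and 8 had an unadjusted p under 0.05 in a permutation test of 100000 resamples, of which 0 passed after Benjamini-Hochberg adjustment over the 45 by r or by Spearman's rho. Spry2 and Dusp6 had the highest r, 0.84 (rho 0.55, unadjusted permutation p = 0.00657 for r and 0.0824 for rho, adjusted p = 0.148 and 0.337). It came to -0.02 without the 2 tumors farthest from the median of Spry2, recurrent 17-DMAG replicate 1 and recurrent 17-DMAG plus stavudine replicate 1, and thus rested on them. Dusp6 and Etv5 had r = 0.80 (rho 0.52, permutation p = 0.0143 and 0.107, adjusted 0.161 and 0.4), and 0.40 without the same 2 tumors. Spry1 and Etv4 had r = 0.76 and rho = 0.76 (permutation p = 0.00611 and 0.00803, adjusted 0.148 and 0.169) and 0.80 without the 2 tumors farthest in Spry1. Etv4 and Etv5 had rho = 0.81 with r = 0.55 (permutation p = 0.00375 and 0.0755, adjusted 0.169 and 0.283). Spry1 and Phlda1 were opposed, with r = -0.72 and rho = -0.75 (permutation p = 0.0129 and 0.0113, adjusted 0.161 and 0.169), and -0.58 without 2 tumors. As deviations from group means, the r of these pairs was 0.80, 0.73, 0.53, 0.53 and -0.78 in the same order.

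Whether the readout followed the RNA of its driver was examined by setting each gene against Erbb2 over the 11 tumors. Of these 10 relations, 2 had an unadjusted permutation p under 0.05 by r and 0 passed after adjustment over the 10 by r or rho. Dusp6 had r = 0.65 and rho = 0.69 (permutation p = 0.0401 and 0.0223, adjusted 0.221 and 0.223). Etv5 had r = 0.67 and rho = 0.20 (permutation p = 0.0441 and 0.555, adjusted 0.221 and 0.694). Without the 2 tumors farthest from the median of Erbb2, primary untreated replicate 2 and recurrent 17-DMAG replicate 1, r was 0.10 for Dusp6 and 0.18 for Etv5, so that both relations rested on those tumors. As deviations from group means, which compare tumors within their groups, r was 0.54 for Dusp6 (adjusted permutation p = 0.396) and 0.76 for Etv5 (adjusted permutation p = 0.0455), the only one of the 10 to pass in that form. That permutation moved deviations freely between groups, although centring ties those of a group together, so its p-values are only approximate. Over the uncentred values, r for Etv5 was 0.12 without recurrent 17-DMAG replicate 1. Spry4 went the other way, with r = -0.37 and -0.72 without the 2 tumors farthest from the median of Erbb2 (unadjusted permutation p = 0.254 and 0.0302, adjusted 0.362 and 0.302). The remaining 7 genes had r of -0.26 to 0.50.

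**Figure D4:**
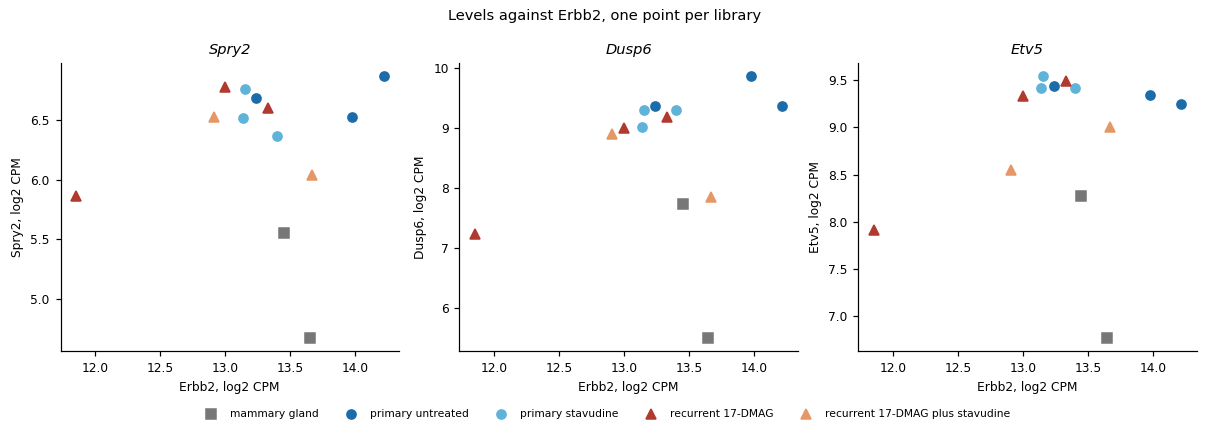
Spry2, Dusp6 and Etv5 against Erbb2, all as log2 CPM, with a point for each of the 13 libraries. Recurrent 17-DMAG replicate 1 stands alone at the left with the lowest Erbb2, and the glands lie at the bottom of each panel at Erbb2 levels inside the tumor range, below every tumor in Spry2 only.

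The genes whose level over the 11 tumors was most like the mean z-score of the 10, among 12683 other genes whose log2 CPM averaged 1 or more, were Col9a1, Grsf1 and Tapbpl (Spearman's rho 0.95 each), Adora1 (0.94) and, tied for the fifth place, 1700015E13Rik, Cpsf7 and Fahd2a (0.93).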

How the data were processed

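RNA of 13 libraries was analysed from the deposited table of read counts per gene, raw and not normalized. Per the labels and the study's methods, the authors made stranded libraries from total RNA depleted of ribosomal RNA, demultiplexed with bcl2fastq 2.20, aligned to mm10/GRCm38 with STAR and counted reads per gene with featureCounts (Subread 1.6.2) on the UCSC annotation. The strand setting and the handling of multiply mapped reads were not given in the sources used here. The deposited counts were whole numbers with library totals differing 1.42-fold.

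Groups came from the labels. edgeR 4.0.16 (R 4.3.3; filterByExpr, TMM factors, robust quasi-likelihood F test, two-sided, Benjamini-Hochberg adjustment over all genes) was fitted to 13 libraries and 17135 genes for tumors against glands and to the 11 tumors and 16870 genes for comparisons between tumors (biological coefficient of variation 0.431 and 0.402). The study's own tool, DESeq2 (1.42.0 here), and limma 3.58.1 voom were alternatives, with RLE factors, library totals alone, no low-count filter and a replicate block. Further alternatives were pairs of tumor groups fitted alone, composition genes left out and each library left out. The primary untreated tumors alone were also set against the glands, as a contrast in the fit of 13 libraries. Log2 CPM used a prior count of 2. The SE of an edgeR estimate, also drawn as bars in the figures, was derived as its absolute log2 fold change divided by the square root of F. The edgeR code was tested on simulated data. The p-values measure the spread between these samples. The genes and all lists were chosen with earlier results of these data known. Each gene is named with its log2 fold change where it was called, reached 1 in size or had an unadjusted p under 0.05, and list genes where called or, in the averaged recurrence comparison, at the 2 highest and 2 lowest estimates. Other list results are given as counts. Chromosomes, strands, exon lengths and exon overlaps came from GENCODE vM21, gene positions and start-site windows from RefSeq.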

Additional observations from a re-analysis of the deposited data

Results flagged for a closer look

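The recurrence effect differed between the mice without and with stavudine for 3 genes at an unadjusted p under 0.05 of the edgeR interaction term, beside 7.84% of all genes, and for none after adjustment over all genes. The number was 4 with DESeq2, 2 with RLE factors, library totals alone or limma voom, and 1 with the replicate block. The share of all genes was taken for the main edgeR fit only, so these other numbers have no background. The log2 difference, under stavudine minus without, was -1.34 for Spry1, 0.92 for Dusp4 and 1.44 for Phlda1. Leaving out a library in turn kept the sign of this difference in each, over -1.79 to -1.05, 0.62 to 1.14 and 0.84 to 1.81. The 3 genes were picked by the p-value of this same difference, so the kept sign is no further evidence of it.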

How the results depend on the processing

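The count of genes called in tumors against glands, 4 by edgeR, was 7 with DESeq2, 6 with limma voom, 4 with RLE factors and without milk, muscle and adipocyte genes, 3 with no low-count filter, 1 with primary untreated tumors alone, 0 with library totals alone, and 1 to 8 when a library was left out. With the replicate block it was 0 by edgeR, with 7 at an unadjusted p under 0.05. Same-numbered libraries, glands included, did not deviate together (23 pairs, correlations of -0.29 to 0.22, 2 over 0.1), so the numbers were taken to name samples only. The counts of the 6 comparisons between tumors were 0 under each alternative run. Of the relations with Erbb2, 1 passed as deviations from group means, by a permutation across groups whose p-values are approximate, and 0 under the other settings. Of all 70 estimates (10 genes in 7 comparisons), 20 changed sign under at least 1 setting, each between tumors and at most 0.58 in size. Etv5 in recurrence without stavudine was 0.076 without recurrent 17-DMAG replicate 1, over a range of -0.58 to 0.076. Recomputed log2 fold changes of the named results kept their direction and their side of the threshold in 222 of 239 values under other settings and in 333 of 357 with a library left out. Most of these results had not passed in the main fit, so few had a call to lose. Of the 4 calls, with each of 13 libraries left out in turn, Spred1 was kept in 13 fits, Spry2 in 12, Spry4 in 8 and Etv4 in 2. Fosl1 dropped out of the fit without recurrent 17-DMAG replicate 1. The cause of these changes was not tested. The glands and the recurrent 17-DMAG plus stavudine tumors had 2 libraries each, and Fosl1 had 0 to 14 counts, which limits their precision.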
